A study of Stylosanthes guianensis with 6 samples.

Results

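The 8 unigenes described here encode sugar-phosphate translocators and a glycerol-3-phosphate transporter of *Stylosanthes guianensis* (stylo), a tropical pasture legume. They were taken from the Pi transporter section of the study's list of transporter genes that differed between low and high phosphate, in which they make up 8 of 18 unigenes, out of 173014 unigenes in the assembly. A unigene is a transcript contig, or group of contigs, that stands for 1 gene in a transcriptome assembled without a genome. The list was itself selected on the comparison of low with high phosphate in these libraries, with thresholds of 1 on the size of the log2 fold change and 0.05 on the adjusted p. The differences between treatments given below are therefore descriptions of the unigenes. Whether the fit over all unigenes called a member is stated, but such a call restates the selection and is no independent test. All 8 passed the filter on low counts, which a unigene can pass through the libraries of 1 treatment alone. Cluster-8255.77282 passed only through low phosphate, having no reads under high phosphate. Cluster-8255.107704 (7.99 counts in a high phosphate library) and Cluster-8255.35310 (3.18 in a low phosphate library) also rested on the treatment where they were higher.

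Seedlings of cultivar RY2 were germinated for 3 d, grown in nutrient solution with 250 μM KH2PO4 for 14 d, and then kept for 21 d at 0 μM KH2PO4 (LP) or at 250 μM KH2PO4 (HP, titled CK). RNA-seq was carried out on 3 LP and 3 HP root libraries. In the study's design a biological replicate was 1 hydroponic box holding 3 seedlings of each cultivar. Each library was taken to stand for 1 box, which the sample labels do not state. The phosphorus field of the sample labels states the opposite doses, 250 for the libraries titled LP and 0 for those titled CK, and the treatments were taken from the titles and the study's methods, so each direction below rests on that assignment. Under it, 5 phosphate starvation markers (2 SPX domain and 3 starvation-induced proteins) summed to 547, 578 and 677 FPKM in the libraries titled LP, against 0.95, 5.33 and 0.38 FPKM in those titled CK. These markers were taken from the part of the study's list of differing unigenes that was used here. That list was selected on this comparison, and the markers were chosen with earlier results known. Their values are therefore no independent check of the doses. They do not stand for all SPX genes, since the study reports others that were lower under low phosphate. The labels' extraction text also speaks of leaves and of a strand-marking kit, whereas the tissue field and the study's methods name roots and a kit without that property. The tissue was not checked against marker genes, because descriptions were at hand for only some of the unigenes.

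Plastids that do not photosynthesise depend largely on exchanging phosphorylated carbon with the cytosol to make starch, lipids and reducing power. The exchange is carried by a family of antiporters in the inner envelope membrane, each of which moves a phosphorylated sugar or acid in one direction and inorganic phosphate (Pi) in the other. Triose phosphate translocators are best known for exporting the products of photosynthesis from leaf chloroplasts, while glucose-6-phosphate translocators (GPT) bring glucose 6-phosphate into plastids of roots, seeds and other tissues that do not photosynthesise. In *Arabidopsis*, the xylulose 5-phosphate translocator (XPT) links the pentose phosphate pathways of plastid and cytosol. Glycerol-3-phosphate transporters are a separate family, related to the bacterial GlpT protein that exchanges glycerol 3-phosphate for Pi, and members of it respond to Pi starvation in *Arabidopsis*. No nucleotide or protein sequences of the 8 unigenes were used here, and the unigenes have no genome position.

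The libraries held 20643446 to 21784888 estimated counts under LP and 15586353 to 17821019 under HP (LP was sequenced more deeply). Spearman correlations of log2 CPM (counts scaled to library size) lay within 0.892 to 0.915 for pairs of libraries that shared a treatment, and within 0.785 to 0.814 for pairs that did not. Values are given either as normalized counts, which are the deposited counts scaled to a common library size and suit comparisons of 1 unigene between libraries, or as FPKM, which are also divided by length and suit comparisons between unigenes. In whole root tissue, fewer cells of a type and less RNA per cell cannot be told apart. Each of the 8 unigenes had counts that were not whole numbers in 3 to 6 of the 6 libraries, meaning that part of its reads also fitted other unigenes and was divided among them by estimation, so levels of closely related copies are uncertain.

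Of the 8 unigenes, 5 had higher and 3 lower mean normalized counts under LP than under HP. In the fit over all unigenes, 7 of the 8 were called, which means that the adjusted p was under 0.05 (edgeR's quasi-likelihood test) and the log2 fold change was 1 or more in size, against a background of 13.2% of the 62040 unigenes tested. The called ones were 5 of 8 higher under LP, with a background of 6.09%, and 2 of 8 lower under LP, with a background of 7.1%. Because the list was selected on this comparison, nothing is read from these counts. The LP and HP libraries did not overlap for any of the 8, which was also true of 42.4% of all unigenes tested. The median log2 fold change of the 8 was 1.54, beside 0.03 over all unigenes tested. The members were selected for a large change, so this gap is no result. Nor does it stand for a common rise, as 3 of the 8 were lower under LP.

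**Figure D1:**
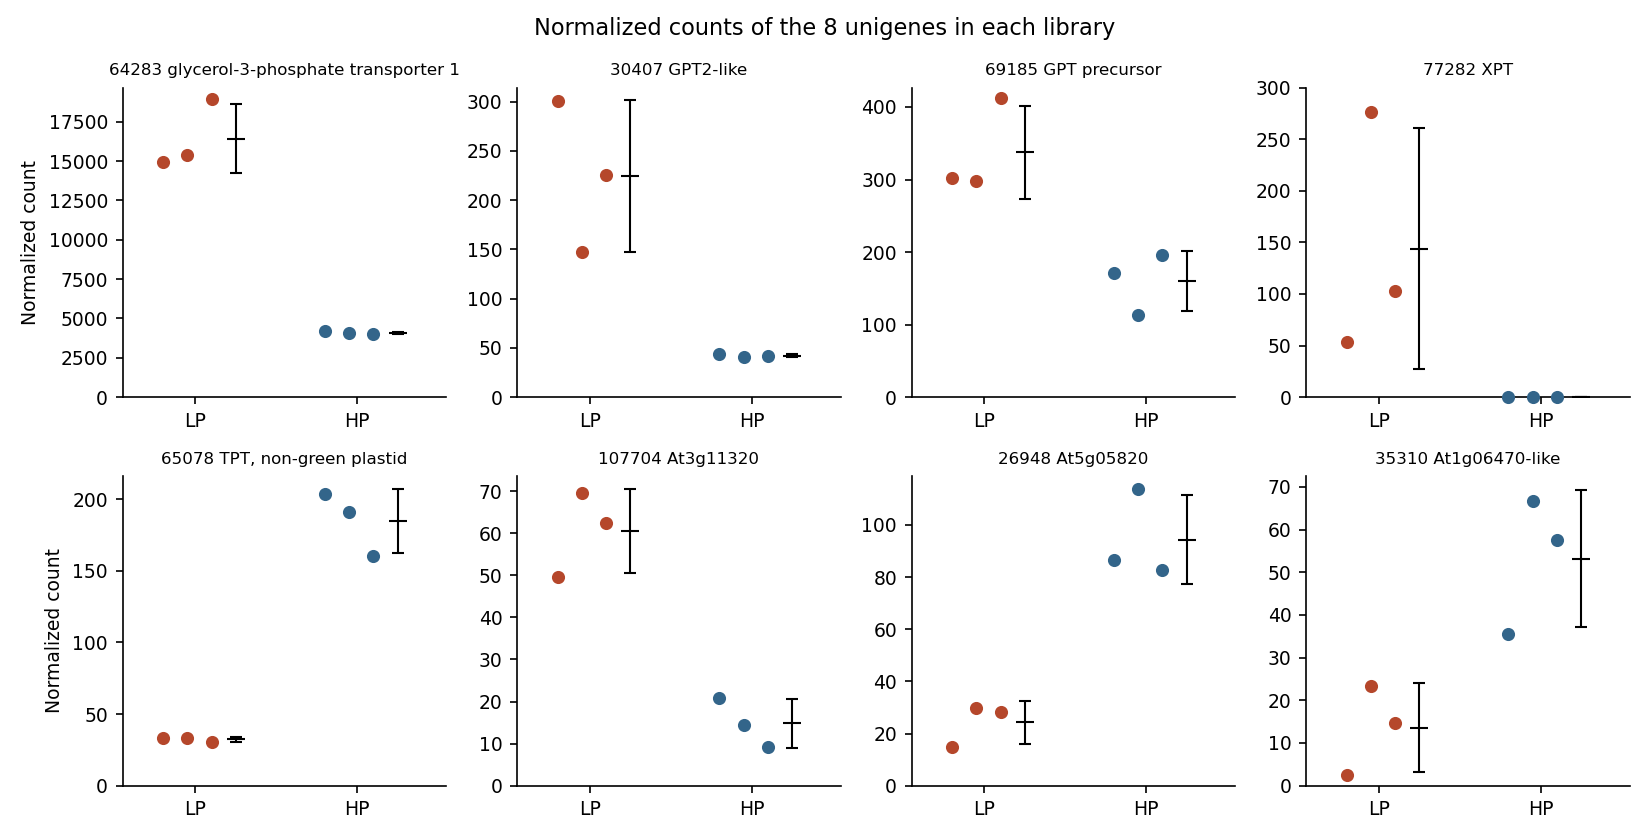
Normalized counts (vertical axes, each from 0 and on its own scale) of the 8 unigenes in the 3 LP and 3 HP libraries, with points for libraries and black bars for the mean ± SD. Every LP library lies above every HP library in 5 panels, and below every HP library in the panels of the triose phosphate translocator (TPT), At5g05820 and At1g06470-like.

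The glycerol-3-phosphate transporter was by far the most abundant member and was 4.02-fold higher under LP. Cluster-8255.64283, described as glycerol-3-phosphate transporter 1, had 14926, 15399 and 18931 normalized counts in the LP libraries, against 4174, 4058 and 4006 in the HP libraries. All 3 LP libraries stood well above the HP libraries, and the lowest LP value was 3.58 times the highest HP value. On the FPKM scale its level was 337 ± 39.7 under LP and 84.8 ± 2.32 under HP (SD, n = 3 each). The log2 fold change was 2.01 with a standard error of 0.12, the smallest standard error among the 8. The HP libraries were nearly alike, with a coefficient of variation (CV) of 13.3% under LP and 2.11% under HP, where counting alone would give 0.74% and 1.66%. By FPKM it ranked between 231 and 341 among all unigenes in the LP libraries and between 1550 and 1719 in the HP libraries.

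Both unigenes annotated as glucose-6-phosphate translocators were higher under LP, by unequal factors. Cluster-8255.30407, described as glucose-6-phosphate/phosphate translocator 2-like, had 301, 147 and 226 normalized counts in the LP libraries, against 43.8, 41.2 and 41.4 in the HP libraries. The LP libraries differed among themselves by more than the HP libraries did, and the lowest of them was still 3.36 times the highest HP library. The mean was 5.33 times as high under LP as under HP, with a log2 fold change of 2.41 (SE 0.29). Cluster-8255.69185, described as the precursor of a glucose-6-phosphate/phosphate translocator, had 303, 299 and 412 normalized counts under LP, against 171, 114 and 196 under HP. Its groups lay closest together of all the members that were called, with the lowest LP library at 1.53 times the highest HP library. The log2 fold change was 1.07 (SE 0.24), the value nearest to the threshold of 1 among the 8.

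Which of the 2 glucose-6-phosphate translocator unigenes was the more abundant depended on the scale. By deposited count, Cluster-8255.30407 had 0.99, 0.49 and 0.55 times as many reads as Cluster-8255.69185 in the LP libraries, and 0.25, 0.36 and 0.21 times as many in the HP libraries. By FPKM the same ratio was 10.8, 5.34 and 5.87 in the LP libraries and 2.72, 3.79 and 2.30 in the HP libraries, so Cluster-8255.30407 was the higher of the pair in every library. On either scale the ratio was higher in every LP library than in any HP library. The deposited values imply an effective length of 235 bases for Cluster-8255.30407 and 2531 bases for Cluster-8255.69185, where the median over the unigenes tested was 1352. Only 5.13% of the unigenes tested were shorter than Cluster-8255.30407, so its FPKM rests on a short contig and few reads, 754 in LP and 112 in HP when the libraries of a treatment are added. The other 6 unigenes had effective lengths of 1121 to 2565 bases.

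The 2 remaining plastid translocators went in opposite directions. Cluster-8255.77282, described as a xylulose 5-phosphate/phosphate translocator, had 53.2, 276 and 103 normalized counts in the LP libraries and no reads in any HP library. It was thus detected under LP alone, at a level that differed 5.19-fold between the highest and the lowest LP library, and replicate 2 held 63.8% of its reads. Set against a floor of 3 reads over the HP group, its mean over the LP libraries was at least 127-fold higher. Without LP replicate 2 the bound was at least 68.7-fold and without LP replicate 1 at least 167-fold. With any 1 HP library left out it was 81.3-fold to 87.5-fold. The bound covers counting error only. Its counts were not whole numbers in any LP library, so the division of shared reads also enters it. Its CV under LP was 81.3%, where counting alone would give 7.91%. A count of 0 in 3 libraries limits the level under HP and does not show that the gene was silent.

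Cluster-8255.65078, annotated as a triose phosphate/phosphate translocator of non-green plastids, was lower under LP. It had 33.1, 33.4 and 30.3 normalized counts in the LP libraries, against 203, 191 and 160 in the HP libraries. The LP libraries were nearly equal, with a CV of 5.35% beside a counting error of 16.7%, and the lowest HP library was 4.79 times the highest LP library. The log2 fold change was -2.51 (SE 0.19), the largest decrease of the 8, and the mean under LP was 0.175 times that under HP. Its counts were whole numbers in all 3 LP libraries and in none of the HP libraries.

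The 3 members annotated only as probable sugar phosphate/phosphate translocators carry the names of *Arabidopsis* genes, and what they transport in stylo is not known from these data. Cluster-8255.107704, matched to At3g11320, was higher under LP, with 49.7, 69.5 and 62.4 normalized counts in the LP libraries, against 20.9, 14.5 and 9.20 in the HP libraries. Its log2 fold change was 2.01 (SE 0.40), as large as that of the glycerol-3-phosphate transporter but from 202 reads under LP and 40 under HP. Cluster-8255.26948, matched to At5g05820, went the other way, with 14.8, 29.8 and 28.4 normalized counts in the LP libraries, against 86.5, 114 and 82.8 in the HP libraries. Its log2 fold change was -1.95 (SE 0.34), and the lowest HP library was 2.78 times the highest LP library. These unigenes share the wording of their descriptions, apart from the gene name, and differed in opposite directions.

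Cluster-8255.35310, described as At1g06470-like, was the only member not called. It had 2.62, 23.5 and 14.7 normalized counts in the LP libraries, against 35.4, 66.6 and 57.5 in the HP libraries. All LP values were below all HP values, but the highest LP library was 8.97 times the lowest and the CV was 77.0% under LP, where counting alone would give 25.8%, and 30.1% under HP. The log2 fold change of -1.96 was nearly that of Cluster-8255.26948, with a standard error of 0.71 in place of 0.34. It was not called under any of the 18 alternative settings either. A further unigene of this kind outside the 8, Cluster-8255.22643, described as a probable translocator At3g14410, had no reads in the LP libraries and 12.5, 16.9 and 8.05 normalized counts in the HP libraries. Its counts were too low to be tested, and against a floor of 3 reads over the LP group its mean was at least 13.9-fold lower under LP. This rests on 33 reads under HP. The unigene came from the study's list of differing unigenes, so its difference follows from the selection.

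Per length, the order of the 8 unigenes differed between treatments below the first 2 places. Under LP, Cluster-8255.64283 (337 ± 39.7 FPKM) and Cluster-8255.30407 (50.5 ± 17.3 FPKM) were followed by Cluster-8255.69185 (7.02 ± 1.22 FPKM), Cluster-8255.77282 (4.71 ± 3.90 FPKM) and Cluster-8255.107704 (2.84 ± 0.48 FPKM, SD, n = 3 each). The lowest levels under LP were those of Cluster-8255.65078 (1.24 ± 0.09 FPKM), Cluster-8255.26948 (0.97 ± 0.34 FPKM) and Cluster-8255.35310 (0.36 ± 0.29 FPKM). The ranges of the libraries overlapped between the GPT precursor and XPT, XPT and At3g11320, TPT and At5g05820, and At5g05820 and At1g06470-like, so these neighbours were not set apart beyond their spread. Under HP, the same first 2 (84.8 ± 2.32 and 9.46 ± 0.43 FPKM) were followed by Cluster-8255.65078 (7.20 ± 0.88 FPKM), Cluster-8255.26948 (3.80 ± 0.66 FPKM) and Cluster-8255.69185 (3.38 ± 0.90 FPKM). Cluster-8255.35310 (1.43 ± 0.42 FPKM), Cluster-8255.107704 (0.71 ± 0.28 FPKM) and Cluster-8255.77282 (listed at 0) came last. Under HP the ranges overlapped between At5g05820 and the GPT precursor and between At1g06470-like and At3g11320. The triose phosphate translocator stood in place 6 under LP and place 3 under HP.

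**Figure D2:**
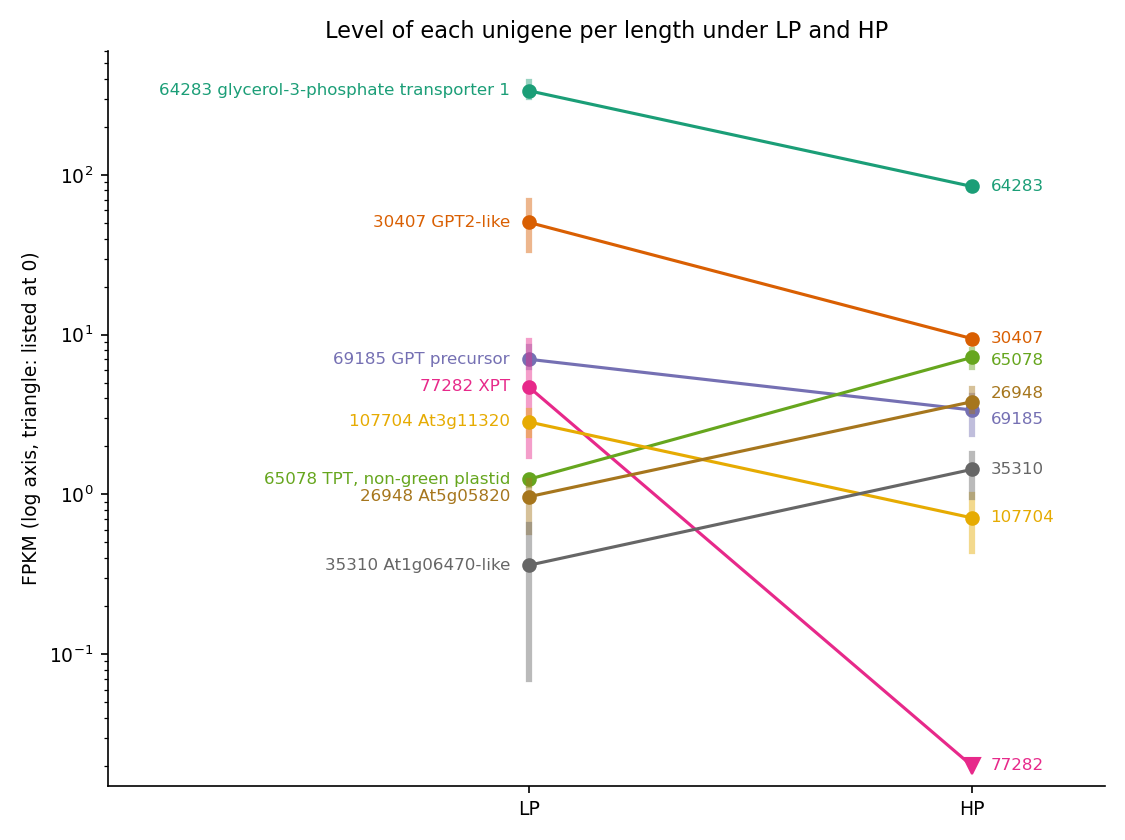
Mean FPKM (log axis) of the 8 unigenes under LP and HP, with thick bars from the lowest to the highest library and lines that join the means of 1 unigene. The lines of TPT, At5g05820 and At1g06470-like run upward to HP and cross others, while the glycerol-3-phosphate transporter and the GPT2-like unigene keep the top places.

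Summed over the 8 unigenes, the level was 387, 378 and 449 FPKM in the LP libraries, against 114, 110 and 109 FPKM in the HP libraries. The glycerol-3-phosphate transporter alone made up 79.2% to 85.3% of the sum under LP and 76.4% to 76.8% under HP, so the sum is mainly its level. The ratio of the mean sums was 3.65, or 1.87 on the log2 scale, and 2.60 for the other 7 unigenes together. Among those 7, the 3 unigenes that were lower under LP took 2.40% to 5.67% of the FPKM in the LP libraries and 44.3% to 53.1% in the HP libraries. The GPT2-like unigene took 60.7% to 84.7% under LP and 34.9% to 37.6% under HP. These shares carry the short length of Cluster-8255.30407 described above. Against the other 10 Pi transporters of the same table, mostly uptake carriers of the PHT1 kind, the 8 unigenes held 47.4% to 51.2% of the joint FPKM in the LP libraries and 47.3% to 48.3% in the HP libraries.

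**Figure D3:**
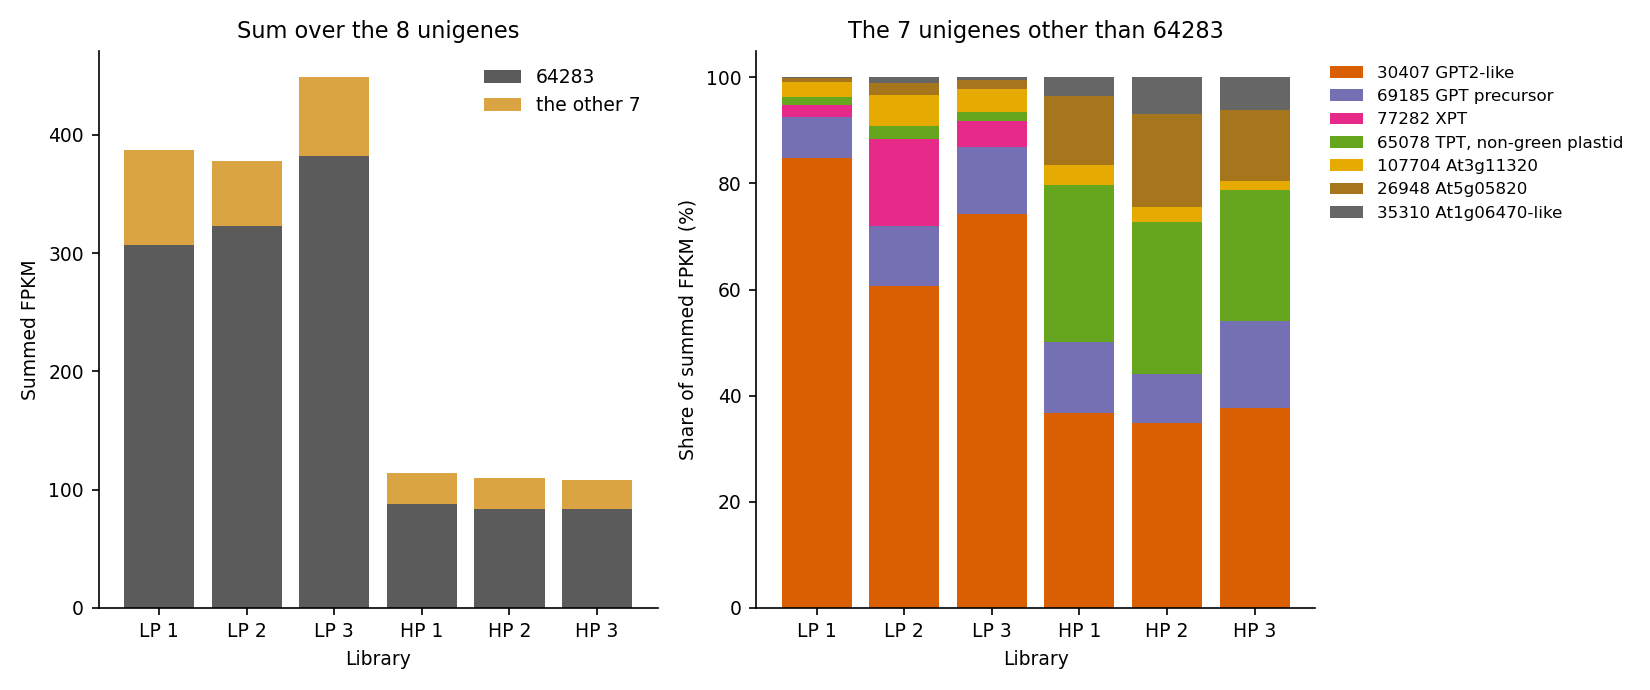
Summed FPKM of the 8 unigenes in each library, divided into the glycerol-3-phosphate transporter (Cluster-8255.64283) and the other 7 (left), and the share of each of those 7 in their own sum in percent (right). The sums are 378 to 449 in the LP libraries and 109 to 114 in the HP libraries, and the 3 unigenes that were lower under LP (TPT, At5g05820 and At1g06470-like) fill 2.40% to 5.67% of the right-hand bars under LP and 44.3% to 53.1% under HP.

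Leaving out 1 library at a time changed no direction among the 8. Since their LP and HP libraries did not overlap, this was fixed beforehand and is no support. The log2 fold changes stayed between 1.90 and 2.08 for Cluster-8255.64283, between 2.15 and 2.65 for Cluster-8255.30407 and between -2.62 and -2.41 for Cluster-8255.65078. Those of Cluster-8255.26948 were -2.11 to -1.68. Cluster-8255.35310 varied most among the members with reads in both treatments, at -2.60 to -1.46 against -1.96 with all libraries, and the lowest value came without LP replicate 2. Whether a call was kept restates the selection, and lost calls are given as a limit. Cluster-8255.107704 (1.75 to 2.38) was not called without HP replicate 2, and Cluster-8255.69185 (0.88 to 1.23) was not called without HP replicate 1, HP replicate 2 or LP replicate 3. The number called was thus 5 without HP replicate 2, of which 3 were higher under LP. In that fit, 6691 of the 69015 unigenes tested were called, 3258 of them higher.

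**Figure D4:**
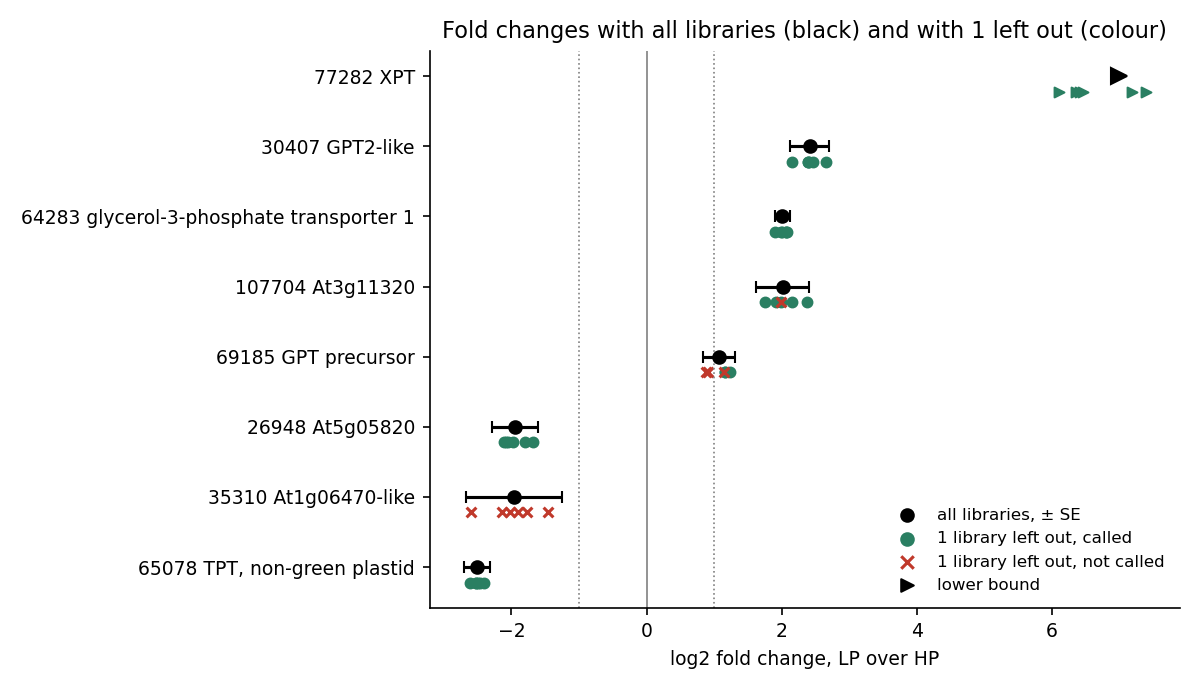
Log2 fold change of LP over HP (horizontal axis) for each unigene with all libraries (black, ± SE) and with 1 library left out (colour, crosses where not called), with dotted lines at the threshold of 1 in either direction. Triangles for XPT are lower bounds against 3 reads under HP, and the points of the GPT precursor lie on both sides of the upper threshold.

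The 7 members with at least 10 normalized counts on average in both treatments were set beside 499 described unigenes of the study's transporter, transcription factor and related tables. Likeness was the root-mean-square difference of log2 CPM over the 6 libraries, each unigene centred on its own mean. All candidates were themselves selected on the LP and HP difference, so the measure mainly ranks them by the size of that difference. The glycerol-3-phosphate transporter was nearest to Cluster-8255.83377, an ethylene-responsive factor of the RAP2-7 kind (0.13), and to Cluster-8255.66087, a NAC domain protein 67 (0.15). For the GPT2-like unigene, the nearest were Cluster-8255.75677, a Pi transporter 1-7-like (0.24), and Cluster-8255.101206, a bHLH17 protein (0.24). The GPT precursor lay nearest to Cluster-8255.57414, an auxin-responsive IAA27 (0.18), and Cluster-8255.59840, an ethylene-responsive factor 2 (0.19).

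Among the probable translocators, Cluster-8255.107704 was nearest to Cluster-8255.41490, a presequence protease 2 (0.20), and Cluster-8255.73929, a bHLH148-like factor (0.26). Cluster-8255.26948 had as its nearest Cluster-34276.1, an aluminum-activated malate transporter 2 (0.18), and Cluster-8255.46163, a Pi transporter 1-9 (0.18). Cluster-8255.35310 lay farther from its nearest than the other 6 did, at 0.35 from Cluster-8255.96699, a bHLH18-like factor, and 0.36 from Cluster-8255.98521, a yellow stripe-like transporter 3.1. The triose phosphate translocator came nearest of all to its neighbour, at 0.12 from Cluster-8255.68369, a JACKDAW-like zinc finger protein, followed by Cluster-8255.86148, a zinc transporter 2 (0.18).

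Genes around these transport steps were taken from the same study's lists, of which one was used in part, and these too were selected on the LP and HP difference. Of the other 10 Pi transporters, 9 were tested, with 6 called higher (background 6.09%) and 3 called lower (background 7.1%) under LP. The selection fixes these counts, and nothing is read from them. By the mean over all 6 libraries, the most abundant were Cluster-8255.75677 (200 ± 33.4 FPKM under LP and 31.4 ± 0.29 under HP) and Cluster-8255.75186 (146 ± 27.5 FPKM under LP and 6.34 ± 0.82 under HP), both proton-coupled carriers of the PHT1 kind. Under HP alone the order was different, since Cluster-8255.72767, a phosphate transporter 3, had 22.2 ± 6.62 FPKM under LP and 61.4 ± 1.07 under HP. This last unigene is outside the naming rule and was chosen after its values were seen. The glycerol-3-phosphate transporter, at 337 FPKM under LP and 84.8 under HP, stood above these 3. Of the 4 ADP/ATP carriers, which exchange ATP and ADP across plastid or mitochondrial membranes, 1 was called higher and 3 were called lower under LP. These counts have the same backgrounds and also follow from the selection. Among them, the envelope carrier Cluster-8255.69002 had 12.8 ± 5.04 FPKM under LP and 59.0 ± 6.12 under HP, and Cluster-8255.68657 had 0.78 ± 0.19 under LP and 2.98 ± 0.33 under HP.

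Enzymes that release glycerol 3-phosphate or remodel membrane lipids were taken from the part of the study's list that was used, in which the tested ones had log2 fold changes of 4.55 or more. Their counts therefore follow from the selection, stand beside the background of 6.09% called higher, and say nothing about these enzymes as a group. Glycerophosphodiester phosphodiesterases, which release glycerol 3-phosphate from deacylated phospholipids, were called higher for 6 of 6. The most abundant, Cluster-8255.58978 of the GDPD1 kind, had 753 ± 59.8 FPKM under LP and 10.4 ± 2.21 under HP, and Cluster-8255.67497 of the GDPD2 kind had 23.8 ± 3.47 under LP and 0.64 ± 0.19 under HP. All 8 unigenes of SQD2 and MGD, which make sulfolipid and galactolipid in place of phospholipid, were called higher, with Cluster-8255.81109 at 76.9 ± 22.3 FPKM under LP and listed at 0 under HP, and Cluster-8255.28489 at 4.49 ± 0.93 under LP and 0.04 ± 0.06 under HP. Of 4 phospholipase D unigenes, 3 were tested and called higher. Cluster-8255.17835 had 2.98 ± 1.74 FPKM under LP and 0.05 ± 0.08 under HP, and Cluster-8255.103474 had 495 reads under LP and 0 under HP. The log2 fold change of the GDPD1 unigene Cluster-8255.58978 was 6.19 (SE 0.20), beside 2.01 (SE 0.12) for the glycerol-3-phosphate transporter.

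Starch synthases, which in root plastids draw on carbon brought in as glucose 6-phosphate, came mostly from the same part of that list, and 5 of 5 were called higher under LP at log2 fold changes of 4.41 or more (background 6.09%), a count that likewise follows from the selection. Cluster-8255.96281, starch synthase IIa-2, had 8.37 ± 0.30 FPKM under LP and 0.39 ± 0.67 under HP, and Cluster-8255.91556, a granule-bound starch synthase 1, had 4.91 ± 0.73 under LP and was listed at 0 under HP. Of 11 other sugar transporters, 10 were tested, with 2 called higher (background 6.09%) and 6 lower (background 7.1%) under LP. These calls follow from the selection too. Cluster-8255.64610, a sugar transport protein 5-like, had 9.34 ± 4.67 FPKM under LP and 80.4 ± 1.74 under HP, while Cluster-8255.96632, a UDP-galactose transporter 1, had 47.0 ± 2.47 under LP and 22.1 ± 1.66 under HP.

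Reads of other organisms were looked for in 8 unigenes of the study's list that match an alga or a diatom. Together they took 3.21, 4.65 and 5.94 CPM in the LP libraries, against 2.45, 7.53 and 3.77 in the HP libraries, and the groups overlapped. These unigenes were selected for differing in either direction, so the overlap of their sums does not measure how much foreign RNA the libraries held. Of the 5 that were tested, 4 were called higher (background 6.09%) and 1 lower (background 7.1%) under LP, counts that restate the selection. Cluster-8255.49364 had 0 reads under LP and 113 under HP, and Cluster-8255.14305, a fucoxanthin-chlorophyll binding protein, had 91 reads under LP and 0 under HP. Whether any of the 8 translocator unigenes comes from another organism was not tested.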

How the data were processed

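RNA-seq was carried out on 3 LP and 3 HP root libraries of RY2. The authors filtered the reads, assembled them into unigenes with Trinity and estimated expression with RSEM. Bowtie2 2.2.3 is named in the submitters' processing notes. The estimated counts that were deposited (RSEM's expected counts) are not normalized, and non-whole numbers made up 34.0% to 36.4% of each library's values. The FPKM values deposited by the authors beside them are scaled for unigene length and library size. The sources used here do not say whether strand was used in counting. Descriptions come from the study's tables. Of the long list of differing unigenes only part was used, so no set test was run.

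Counts were rounded, and filterByExpr of edgeR 4.0.16 (minimum count 10) kept 62040 of 173014 unigenes. TMM scaling and the quasi-likelihood test were run over all of these in R 4.3.3, with Benjamini-Hochberg adjustment. Calls needed an adjusted p under 0.05 and a log2 fold change of 1 or more in size. The standard error is the log2 fold change divided by the square root of the F statistic. Log CPM used a prior count of 2. Effective lengths were computed as count divided by FPKM and library total, for libraries with at least 0.5 FPKM. A group without reads was set at 3 reads over its libraries, which covers counting error only. Replicates were taken to be boxes of seedlings, and no library was a duplicate of another by chi-square (5.94 to 17.2 per degree of freedom within a treatment). The code was tested on simulated data with a single dispersion and far fewer changed unigenes than were called here. That test does not measure the error of these calls.

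The members and lists were chosen with earlier results of these data known. The unigenes named are the 8 members, a further translocator of the list used in part, of each other list the 2 with the highest mean FPKM over the 6 libraries, and the 2 described unigenes most alike to each member. Alternatives were DESeq2 1.42.0, its size factors, upper-quartile factors, library sizes alone, no filter, a filter of 1 CPM in 3 libraries, edgeR's glmTreat with 1 as the log2 fold change to exceed, an adjusted p under 0.01, limma 3.58.1 on log2(FPKM + 1) and on log2(FPKM + 0.1), unrounded counts, the replicate number as a block, and each library left out. The authors' own fold changes and p-values were not used.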

Additional observations from a re-analysis of the deposited data

How the results depend on the processing

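No value of the 8 unigenes reversed under the alternatives run. The glmTreat test, which asks whether the log2 fold change exceeds 1 in size, called 3053 unigenes and 4 of the 8, of which 3 were higher and 1 was lower under LP. At an adjusted p under 0.01, 4214 unigenes and 4 of the 8 were called, 2 of them higher, with Cluster-8255.69185, Cluster-8255.107704 and Cluster-8255.77282 no longer called. With the replicate number as a block, 5167 unigenes and 6 of the 8 were called, without Cluster-8255.107704. Same-numbered LP and HP libraries did not deviate together (r of -0.01, 0.04 and 0.05), so the numbers were not taken to pair them. With each library left out, 5586 to 8183 unigenes and 5 to 7 of the 8 were called, of which 3 to 5 were higher. The log2 ratio of the summed FPKM was 1.38 without Cluster-8255.64283, in place of 1.87, since 1 unigene makes up most of the sum. In limma on log2(FPKM + 1), the log2 change was 1.17 for Cluster-8255.107704, -1.29 for Cluster-8255.26948, -0.85 for Cluster-8255.35310, -1.87 for Cluster-8255.65078 and 2.30 for Cluster-8255.77282 (5.27 with 0.1 added), because a pseudocount shrinks changes of low levels, and Cluster-8255.69185 (0.88) was not called. A prior count of 0.5 left 12 of the 14 most alike unigenes the same. Those lost were Cluster-34276.1, given above as the nearest to Cluster-8255.26948, and Cluster-8255.66087, given beside Cluster-8255.64283. Reads were few for Cluster-8255.35310, Cluster-8255.107704 and Cluster-8255.26948, with 45, 202 and 81 under LP and 139, 40 and 249 under HP, and Cluster-8255.77282 could only be bounded. With 3 libraries a treatment, groups are too small to say whether a single library is an outlier.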
